A study of Mus musculus with 12 samples.

Results

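The genes described here encode the aminoacyl-tRNA synthetases, 37 genes of the 45669 rows of the count table. They were chosen by name among protein-coding genes with a row of their own: the 1-letter amino acid code followed by ars for the cytosolic enzymes (20 genes, with Eprs, Farsa and Farsb) and by ars2 for the mitochondrial ones (17 genes). Tarsl2 and genes for separate editing domains were left out. The rule reads gene names only.

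An aminoacyl-tRNA synthetase joins an amino acid to its tRNA, the step that gives each codon its meaning and feeds charged tRNA to the ribosome. The cytosolic enzymes serve the ribosomes of the cytosol, several of them in a multisynthetase complex held together by the scaffold proteins encoded by Aimp1, Aimp2 and Eef1e1, while nuclear genes of the ars2 type make enzymes that are imported to charge the tRNAs of the mitochondrial genome. Gars and Kars each serve both compartments from 1 gene, and glutaminyl-tRNA of mitochondria is made by amidation, so that no gene with the names Gars2, Kars2 or Qars2 is among the members. Uncharged tRNA activates the kinase GCN2 (Eif2ak4), and the transcription factor ATF4 made downstream of it is known to act on many cytosolic synthetase genes.

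CD4+ T cells were taken from lymph nodes of C57BL6 mice aged 12 weeks by removing other cells with beads. The mice were wild type (WT) or carried 2 copies of Anaef, an allele of Rasgrp1 with a point mutation; its product activates Ras below the T cell receptor. This mutation is the only difference between the groups that the labels give. Total RNA was sequenced from 20000 lysed cells per library, giving 4 libraries per genotype, numbered 1 to 4 for WT and 5 to 8 for Anaef. Footprints are the pieces of mRNA that lie inside a ribosome and survive nuclease, labelled RPF for ribosome-protected fragments. They came from pools of 2 samples each after 1 minute in cycloheximide and digestion with micrococcal nuclease, giving 2 pools per genotype, 1B and 2B for WT and 3B and 4B for Anaef. The animals behind each pool are not named in the labels. The p-values therefore measure the spread between the sequenced samples, which may be technical in part, and total RNA and RPF libraries of 1 genotype may come from the same mice.

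Depth was 15326842 to 40046317 counts in total RNA and 2868943 to 7009342 in RPF. Values per library are counts per 1000000 (CPM) of a library size scaled by the trimmed mean of M-values (TMM) over all 12 libraries. Summed CPM of 10 CD4 T cell markers was 3917 to 4201 in WT and 4127 to 6070 in Anaef total RNA, with 8 of the 10 at higher values in Anaef, and that of Cd8a and Cd8b1 was 6.28 to 18.4. All 12 tested B cell markers had lower values in Anaef total RNA, and their list summed to 76.5 to 134 CPM in WT against 35.4 to 87.1 in Anaef libraries. All 6 myeloid markers also had lower values in Anaef total RNA, with sums of 29.1 to 37.96 CPM in WT against 17.2 to 28.4. In RPF the myeloid sums were not lower, with 62.8 to 69.7 CPM in WT against 68.3 to 81.6 in Anaef. Of the 3 myeloid markers tested there, 2 had lower and 1 higher values in Anaef. The plasma cell list summed to 1820 to 10227 CPM in WT total RNA against 674 to 1243 in Anaef, and to 11402 to 37166 against 2592 to 7989 in RPF. The part of these cells in the synthetase values was not tested, and in bulk samples fewer cells of a type and less RNA per cell cannot be told apart. WT replicate 3 and Anaef replicate 6 had the lowest TMM factors of the total RNA libraries (0.677 and 0.727), and no member was called between genotypes with or without both.

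Of all counts of a library, synthetase mRNAs held a small share in total RNA and a larger one in footprints. Genes of the mitochondrial genome held 16.4% to 27.8% of total RNA counts and 0.357% to 0.983% of RPF counts. The shares of the 2 assays are thus taken of unlike wholes. The 20 cytosolic members held 0.0712% ± 0.00779 (SD, n = 4) of WT total RNA counts and 0.320% ± 0.00594 (SD, n = 2) in WT RPF. The 17 mitochondrial members held 0.0233% ± 0.00428 and 0.0363% ± 0.00318 in the same libraries. In Anaef mice the cytosolic share was 0.0691% ± 0.0127 (SD, n = 4) in total RNA and 0.326% ± 0.0144 (SD, n = 2) in RPF, and the mitochondrial share was 0.0233% ± 0.00338 and 0.0325% ± 0.00148. The gap between the classes was thus wider in footprints than in RNA in both genotypes.

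Levels per length showed the same order of the classes in all 12 libraries. Per kb of exon (CPM per kb, union of all exons), the cytosolic median was 2.79 to 3.45 times the mitochondrial median in the 4 WT total RNA libraries and 2.55 to 3.23 times in the 4 Anaef libraries. Per kb of coding sequence in RPF, the ratio was 6.44 and 8.51 in the WT pools and 7.83 and 8.77 in the Anaef pools. In this ratio every RPF library lay above every total RNA library. Of the 17 mitochondrial members, 1 to 4 exceeded the cytosolic median CPM in a total RNA library, and 0 did in any RPF library.

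**Figure D1:**
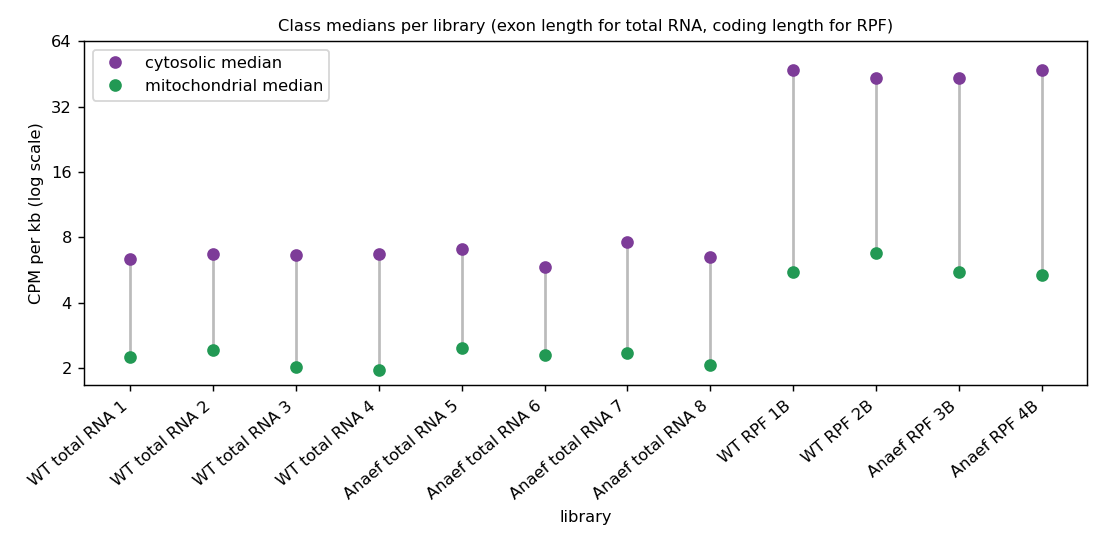
Median level of the 20 cytosolic and the 17 mitochondrial synthetases in each of the 12 libraries, in CPM per kb on a log scale (exon length for total RNA, coding length for RPF); a grey line joins the 2 medians of a library. The cytosolic median is 2.55 to 3.45 times the mitochondrial one in total RNA and 6.44 to 8.77 times in RPF.

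Within the cytosolic class the asparaginyl enzyme Nars had the highest mRNA level per kb in WT total RNA, 26.3 ± 2.60 CPM per kb (SD, n = 4), and the isoleucyl enzyme Iars followed with 23.9 ± 5.62, so that these neighbours did not differ beyond their spread. The lowest were the alanyl enzyme Aars with 3.02 ± 0.460 and the cysteinyl enzyme Cars with 1.46 ± 0.265 CPM per kb. Iars shares 21.1% of its coding 30-base words with the processed pseudogene Gm4849. This pseudogene had 262 to 739 counts in total RNA libraries and 0 in RPF. The RNA and RPF values of Iars, and their ratio, are therefore uncertain. Among mitochondrial members the threonyl enzyme Tars2 (6.12 ± 0.0753 CPM per kb) and the isoleucyl enzyme Iars2 (5.18 ± 0.554) were highest and differed by less than 2 SD of Iars2. Their WT libraries ran from 6.03 to 6.21 for Tars2 and from 4.81 to 5.99 for Iars2, without overlap. In Anaef total RNA the order was the other way, with means of 5.46 for Tars2 and 6.14 for Iars2. The prolyl enzyme Pars2 (0.915 ± 0.0446) and the phenylalanyl enzyme Fars2 (0.367 ± 0.304) were lowest. Per coding kb the lowest cytosolic genes were Vars and Cars, the highest mitochondrial ones Mars2 and Tars2, and the lowest mitochondrial ones Aars2 and Fars2.

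**Figure D2:**
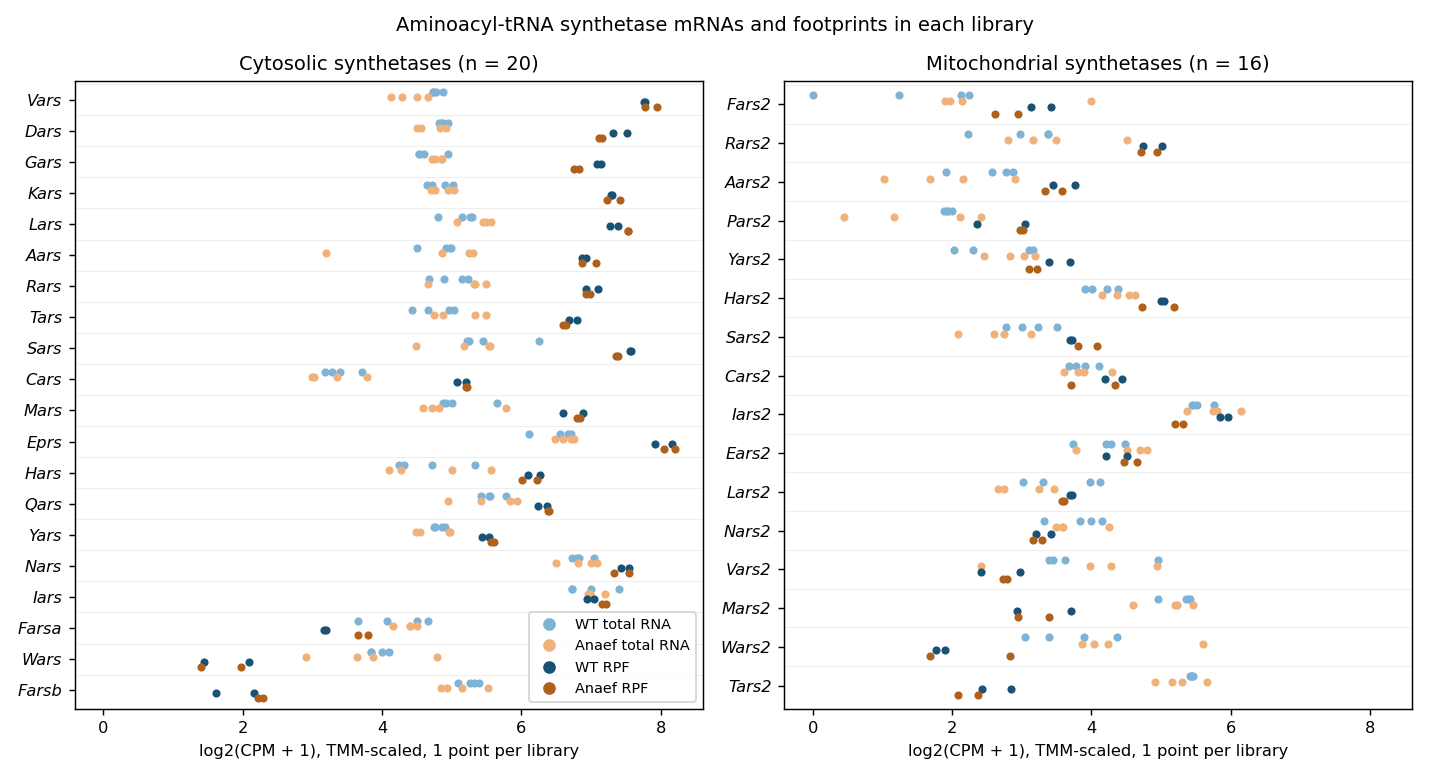
Level of each member in every library, as log2(CPM + 1) with 1 point per library, for the 20 cytosolic (left) and 16 of the mitochondrial (right) genes, ordered by their footprints relative to total RNA in WT. From Vars down to Nars the RPF points of a cytosolic gene lie to the right of its total RNA points, and for Farsb, Wars, Tars2, Wars2 and Mars2 they lie to the left.

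The next question was how many footprints each mRNA had for its amount. Footprints were compared with total RNA within each genotype by edgeR's quasi-likelihood test, and a gene was called at a Benjamini-Hochberg adjusted p under 0.05 over all genes of the fit. These log2 differences are relative to the TMM scale of the fit, on which the median of nuclear protein-coding genes was -0.36 in WT and -0.47 in Anaef. In WT, 16 of the 20 cytosolic members were higher in footprints, 3 were lower and Iars was not called (either direction, 74% over all genes), while 4 of the 17 mitochondrial members were higher and 3 lower. Over all genes tested 19.6% were called higher and 54.4% lower, and over nuclear protein-coding genes 26.5% and 39.3%. The class medians were 1.76 and 0.49 on the log2 scale. In Anaef the cytosolic count was 16 higher and 2 lower with a median of 1.62, and the mitochondrial count 1 higher and 3 lower with a median of 0.13. The background there was 16.4% higher, 50.8% lower and 67.1% in either direction over all genes, and 21.6% and 36.2% over nuclear protein-coding genes. The cytosolic share called higher was thus above the background in both genotypes, and the mitochondrial share was near or below it.

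**Figure D3:**
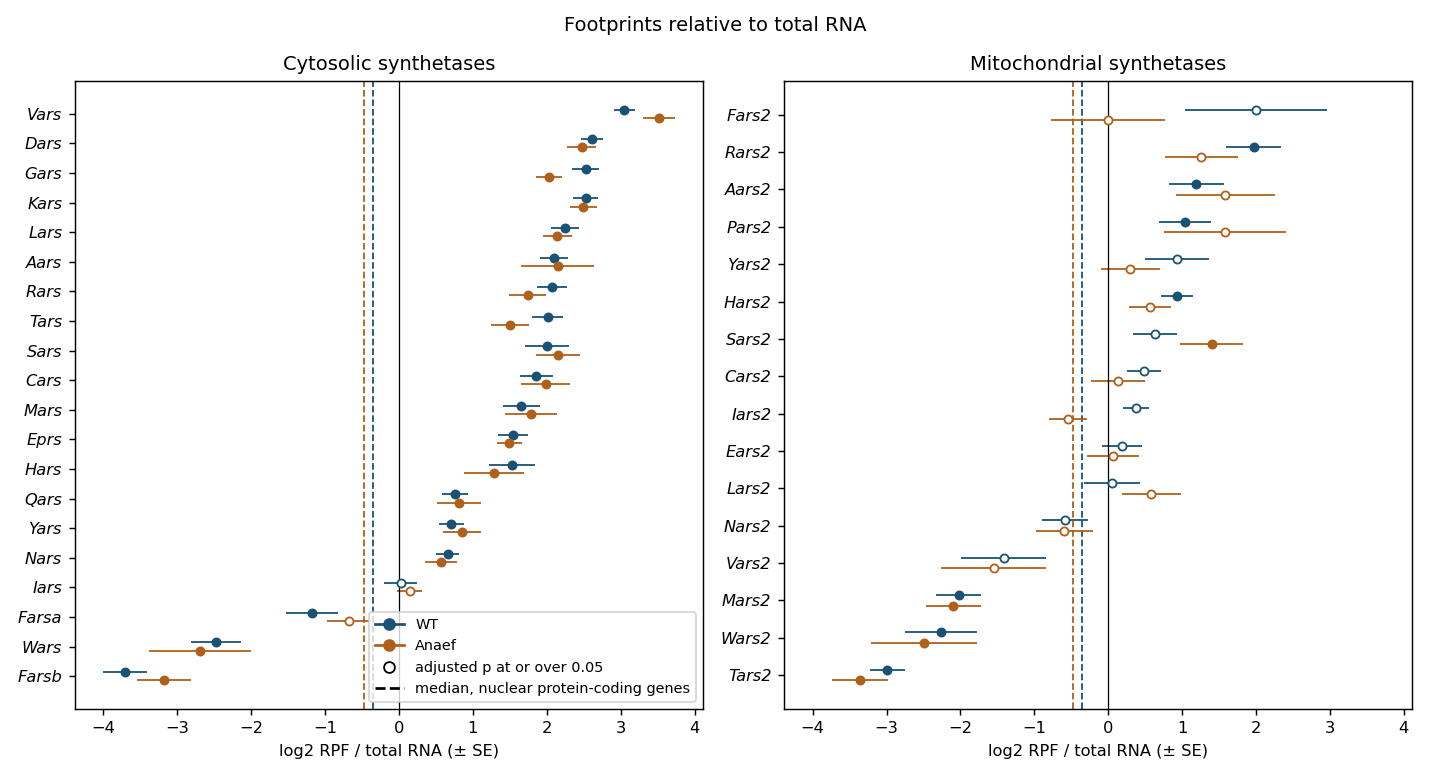
Log2 of footprints relative to total RNA for 36 members (points, each with its SE as a bar) in WT (6 libraries) and Anaef (6 libraries); open points did not pass an adjusted p of 0.05, and dashed lines mark the median of nuclear protein-coding genes (-0.36 in WT, -0.47 in Anaef). Cytosolic members reach 3.05 (Vars) in WT, and Farsb lies lowest at -3.70.

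Of the 8 members in the multisynthetase complex, 7 were called higher in each genotype and Iars in neither, with medians of 1.86 in WT and 1.76 in Anaef. Dars, the aspartyl enzyme, had 27.7, 27.1, 29.8 and 28.5 CPM in WT total RNA against 181 and 158 in the WT pools, a log2 difference of 2.61 (SE 0.15, adjusted p = 7.05e-06). In Anaef it had 29.2, 21.6, 22.5 and 27.5 CPM in total RNA against 142 and 137 in RPF, a log2 difference of 2.47. All RPF values of Dars lay above all of its RNA values. Kars, the lysyl enzyme, had 24.04, 29.05, 31.4 and 25.4 CPM in WT total RNA against 157 and 154 in RPF, a log2 difference of 2.52 (SE 0.17, adjusted p = 1.11e-05). Its Anaef values were 25.1, 29.9, 26.005 and 31.8 CPM in total RNA against 148 and 169.7 in RPF, a log2 difference of 2.49. All 4 RPF values of Kars lay above its 8 RNA values. The share of all genes whose RNA and RPF values separate was not counted.

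Lars, which charges leucine, had 34.4, 38.03, 26.9 and 37.5 CPM in WT total RNA against 167 and 153 in RPF (log2 2.24), and 43.97, 46.4, 42.7 and 32.6 against 184 and 183 in Anaef (log2 2.14). For Rars, which charges arginine, the WT values were 36.4, 34.4, 24.6 and 28.7 CPM against 137 and 121 (log2 2.07), and the Anaef values 24.3, 39.1, 44.1 and 39.2 against 126 and 121 (log2 1.74). Neither gene had overlapping RNA and RPF values, a trait whose share over all genes was not counted. Mars, the methionyl enzyme, had 29.3, 28.2, 48.97 and 31.1 CPM in WT total RNA against 95.8 and 117 in RPF (log2 1.65), and 53.9, 23.1, 27.1 and 25.2 against 109.9 and 113 in Anaef (log2 1.79). WT replicate 3 and Anaef replicate 5 were its high RNA libraries. Eprs, 1 protein with glutamyl and prolyl activities, gave the highest footprint CPM of the members, with 284 and 241 in the WT pools over 100.3, 92.7, 67.7 and 104 in WT total RNA (log2 1.55). The Anaef values of Eprs were 265 and 293 CPM over 104, 88.1, 107 and 96.1 (log2 1.49).

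Qars, the glutaminyl enzyme, had a smaller difference, from 53.9, 45.8, 41.8 and 45.5 CPM in WT total RNA to 74.3 and 81.6 in RPF (log2 0.76, SE 0.17, adjusted p = 0.00516). In Anaef it went from 41.7, 60.3, 56.3 and 29.7 CPM in total RNA to 82.96 and 82.6 in RPF (log2 0.81, SE 0.30, adjusted p = 0.0389), a call lost without Anaef replicate 5 (adjusted p = 0.0757) or either Anaef pool. Iars, the isoleucyl enzyme of the complex, had 127, 105, 168 and 105 CPM in WT total RNA against 122 and 131 in RPF, and 126, 146, 126 and 124 against 147 and 142 in Anaef. Its RNA and RPF ranges overlapped, with log2 differences of 0.02 (SE 0.22, adjusted p = 0.925) in WT and 0.14 (SE 0.17, adjusted p = 0.464) in Anaef. The words that Iars shares with Gm4849 leave these differences uncertain.

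Outside the complex, 9 of 12 cytosolic members were called higher in each genotype, and the lower ones were Farsa, Farsb and Wars in WT and Farsb and Wars in Anaef. Vars, the valyl enzyme (ENSMUSG00000007029, chr17:35000987-35016322 of GRCm38), had the highest log2 value of the members in both genotypes without regard to length. It had 25.5, 28.3, 26.4 and 25.6 CPM in WT total RNA against 217 and 215 in the WT pools, a log2 difference of 3.05 (SE 0.14, adjusted p = 4.00e-06). In Anaef it had 18.5, 21.6, 24.3 and 16.5 CPM in total RNA against 219 and 246 in RPF, a log2 difference of 3.52 (SE 0.21, adjusted p = 6.98e-06). In WT it stood at percentile 95.9 of nuclear protein-coding genes tested. With footprints per coding kb over RNA per kb of exon, Vars had 3.60 in WT (percentile 89.3), below Dars at 4.14. In Anaef the values so scaled were 4.07 for Vars and 4.01 for Dars. Gars, the glycyl enzyme of both compartments, had 22.03, 23.3, 29.9 and 22.2 CPM in WT total RNA against 135 and 141 in RPF (log2 2.53), and 25.3, 25.99, 28.02 and 27.8 against 107 and 112 in Anaef (log2 2.03). Aars, the alanyl enzyme, had 30.3, 29.1, 21.7 and 30.9 CPM against 115 and 121 in WT (log2 2.09), and 8.15, 38.4, 37.02 and 28.1 against 116 and 133 in Anaef (log2 2.15). Anaef replicate 5 was the low RNA library of Aars.

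Sars, which charges serine, had 36.1, 42.5, 75.2 and 36.95 CPM in WT total RNA against 189 and 187 in RPF (log2 2.01), and 45.7, 21.4, 45.3 and 35.1 against 163 and 165 in Anaef (log2 2.15). Tars, which charges threonine, had 24.4, 30.02, 20.5 and 31.6 CPM in WT total RNA against 102 and 110.5 in RPF (log2 2.01), and 43.97, 25.8, 28.3 and 39.2 against 99.1 and 96.1 in Anaef (log2 1.51). For Cars the values were lower on both sides, 9.56, 8.08, 12.1 and 8.69 CPM in WT total RNA against 32.7 and 35.7 in RPF (log2 1.86), and 6.97, 7.10, 12.8 and 9.26 against 36.1 and 35.7 in Anaef (log2 1.98). These 3 genes had no RPF value within their RNA range, and how many of all genes do likewise was not counted. Hars, the histidyl enzyme, had 18.9, 25.2, 39.2 and 17.9 CPM in WT total RNA against 76.04 and 66.98 in RPF (log2 1.53), and 31.2, 16.2, 18.3 and 46.4 against 63.4 and 73.6 in Anaef (log2 1.29, adjusted p = 0.0221). The Anaef call of Hars was lost without either Anaef pool (adjusted p = 0.0796 without 3B and 0.133 without 4B).

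Nars and Yars, which charge asparagine and tyrosine, had the smallest differences in WT among the genes called higher. Nars had 112, 110.3, 131 and 105 CPM in WT total RNA against 185 and 171 in RPF (log2 0.66), and 126, 88.9, 135 and 112 against 159 and 185 in Anaef (log2 0.57, SE 0.21, adjusted p = 0.0428). Yars had 28.9, 28.1, 26.1 and 25.8 CPM in WT total RNA against 42.3 and 45.4 in RPF (log2 0.71), and 30.04, 30.5, 22.3 and 21.5 against 46.3 and 47.9 in Anaef (log2 0.85, SE 0.26, adjusted p = 0.018). The call was lost for Nars in Anaef and for Yars in WT and Anaef without 1 library: Nars without Anaef replicates 5, 6 or 8 or either Anaef pool, Yars without the WT pool 2B (adjusted p = 0.0533) or either Anaef pool. In Anaef, limma-voom did not call Hars, Nars, Qars, Yars, Wars and Wars2 (adjusted p = 0.0521 to 0.117), and Nars was not called without the filter on low counts (adjusted p = 0.0643).

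Farsb and Wars in both genotypes, and Farsa in WT, were lower in footprints than in total RNA. Farsb, the beta subunit of the cytosolic phenylalanyl enzyme (ENSMUSG00000026245, chr1:78417975-78488897 of GRCm38), had 37.5, 38.8, 40.9 and 32.9 CPM in WT total RNA against 3.47 and 2.07 in RPF, from 33 and 12 counts. Its log2 difference was -3.70 (SE 0.30, adjusted p = 2.37e-05) in WT, and in Anaef, with 34.6, 29.5, 27.7 and 44.9 CPM against 3.87 and 3.67, it was -3.18 (SE 0.36, adjusted p = 0.000134). Its partner Farsa, the alpha subunit, had 15.8, 21.7, 11.6 and 24.4 CPM against 7.99 and 8.11 in WT, and 20.1, 20.04, 21.6 and 16.9 against 11.6 and 12.96 in Anaef. The difference of Farsa was -1.17 (SE 0.35, adjusted p = 0.0169) in WT and -0.68 (SE 0.30, adjusted p = 0.0718) in Anaef, and the WT call was lost without either WT pool (adjusted p = 0.09701 without 1B and 0.0833 without 2B). Wars, the tryptophanyl enzyme, had 14.98, 16.2, 13.3 and 13.3 CPM in WT total RNA against 3.26 and 1.73 in RPF, a log2 difference of -2.48 (SE 0.34, adjusted p = 0.000361). The Anaef values of Wars were 6.47, 13.6, 26.6 and 11.5 CPM in total RNA against 1.63 and 2.93 in RPF, a log2 difference of -2.69 (SE 0.69, adjusted p = 0.00892), and that call was lost without pool 3B (adjusted p = 0.0894). RPF counts were deposited after masking, and the masked regions are not given in the sources used; their part in these low values was not tested. Farsa, Farsb, Wars and Tars2 share no coding 30-base word with another annotated gene.

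Among the mitochondrial members the 3 called lower in both genotypes, without regard to length, were Tars2, Wars2 and Mars2. Tars2 (ENSMUSG00000028107, chr3:95739976-95760206 of GRCm38) had 41.8, 43.1, 42.2 and 42.5 CPM in WT total RNA against 4.42 and 6.21 in RPF, a log2 difference of -2.99 (SE 0.24, adjusted p = 2.23e-05). In Anaef it had 49.4, 34.6, 38.4 and 29.001 CPM in total RNA against 3.26 and 4.16 in RPF, a log2 difference of -3.36 (SE 0.38, adjusted p = 0.000128). Its RNA was among the highest of the class and its footprints among the lowest. Wars2, the mitochondrial tryptophanyl enzyme, had 19.6, 9.55, 7.23 and 13.8 CPM in WT total RNA against 2.73 and 2.42 in RPF (log2 -2.26), and 47.8, 15.4, 17.9 and 13.6 against 6.12 and 2.20 in Anaef (log2 -2.50, lost without pool 4B with adjusted p = 0.122). Mars2, the methionyl enzyme, had 41.6, 39.8, 41.1 and 30.1 CPM in WT total RNA against 6.63 and 12.1 in RPF (log2 -2.02), and 36.4, 42.8, 35.8 and 23.2 against 6.73 and 9.53 in Anaef (log2 -2.09). No RPF value of Mars2 or Tars2 reached its RNA range, and the same held for Wars2. How often this occurs over all genes was not counted.

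A further 5 mitochondrial members were called higher in 1 genotype. Rars2, which charges arginine, had 9.43, 9.42, 6.84 and 3.71 CPM in WT total RNA against 31.2 and 25.7 in RPF, a log2 difference of 1.97 (SE 0.37, adjusted p = 0.00185). In Anaef it had 10.3, 21.7, 5.98 and 7.95 CPM in total RNA against 29.8 and 25.2 in RPF, with 1.26 (SE 0.50, adjusted p = 0.0514). Rars2 had the highest ratio of the mitochondrial genes called in WT. Hars2, which charges histidine, had 19.8, 17.8, 13.98 and 15.1 CPM in WT total RNA against 30.9 and 32.1 in RPF (log2 0.93, SE 0.22, adjusted p = 0.0053), and 19.7, 23.6, 22.2 and 16.8 against 25.5 and 35.4 in Anaef (log2 0.56, adjusted p = 0.113). Aars2, which charges alanine, had 5.86, 4.95, 6.36 and 2.77 CPM in WT total RNA against 9.89 and 12.6 in RPF (log2 1.19), and 3.48, 2.22, 6.51 and 1.03 against 11.01 and 9.04 in Anaef (log2 1.58, adjusted p = 0.0646). Pars2 had 3.01, 2.85, 2.80 and 2.68 CPM in WT total RNA against 7.26 and 4.14 in RPF (log2 1.04), and 1.24, 0.370, 3.32 and 4.35 against 7.13 and 6.84 in Anaef (log2 1.58, adjusted p = 0.121). The WT calls of Aars2 and Pars2 were lost without either WT pool for Aars2 and without pool 1B or WT replicates 1, 2 or 4 for Pars2. Sars2 was called in Anaef, from 5.72, 5.05, 7.77 and 3.26 CPM in total RNA to 13.05 and 15.9 in RPF (log2 1.399, SE 0.43, adjusted p = 0.0189), and the call was lost without either Anaef pool. In WT, Sars2 had 5.86, 8.44, 7.04 and 10.4 CPM in total RNA against 11.99 and 12.3 in RPF (log2 0.63, SE 0.29, adjusted p = 0.0844). In 1 fit of all 12 libraries Aars2 and Pars2 were not called in WT (adjusted p = 0.0815 and 0.196). For these 5 genes no difference of the ratio between genotypes passed the test given below.

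The other 9 mitochondrial members were called in neither genotype. Of those reported here, the log2 differences ran from -1.42 (Vars2) to 2.00 (Fars2) in WT and from -1.55 (Vars2) to 0.58 (Lars2) in Anaef. Fars2 was measured poorly in RNA, with 3.35, 3.72, 0 and 1.36 CPM in WT and 2.74, 3.41, 2.92 and 14.9 in Anaef. Cars2 shares 14.1% of its coding 30-base words with Naxd, Vars2 6.92% with the antisense gene Gm20483 and Hars 4.07% with Hars2, so reads there may be split or shared. The 0 of Fars2 in WT replicate 3 allows up to 0.289 CPM (3 counts, counting error only).

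Footprints fall on coding sequence while total RNA covers whole transcripts, and the coding share of a transcript was therefore set beside the ratio. The transcript with the longest coding sequence was coding for a median of 84.8% of its length in the cytosolic class and 69.5% in the mitochondrial class. Among genes with a leader long enough to read the start, the median was 84.8% over 20 cytosolic and 62.5% over 16 mitochondrial members. Over 11266 tested nuclear protein-coding genes with such a leader it was 54.8%. Across the 37 members Spearman's rho of coding share with the WT log2 difference was 0.29, against 0.20 over the same 11266 genes; the points share libraries, and genes are not replicates. With footprints per coding kb over RNA per kb of exon, the cytosolic median was 0.91 above the mitochondrial one on the log2 scale in WT and 0.66 in Anaef, against 1.27 and 1.49 without length. With the longest transcript as RNA length the gaps were 0.65 and 0.64. These length scalings were chosen after seeing the data. Of the 20 cytosolic members, 16 were above the median of nuclear protein-coding genes in each genotype and under both lengths, and of the 17 mitochondrial members 12 or 13 were. Mars2 (15.6% coding) and Wars2 (24.5%) had the smallest coding shares, whereas Farsb (90.6%), Tars2 (90.4%) and Wars (79.1%) were mostly coding and had few footprints. Scaled per exon kb in WT, Mars2 and Wars2 stood at percentiles 39.3 and 32.4 of nuclear protein-coding genes. Farsb, Tars2 and Wars stood at 10.85, 17.9 and 18.5. With the longest transcript as RNA length, Mars2 and Wars2 stood at 47.2 and 32.1.

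**Figure D4:**
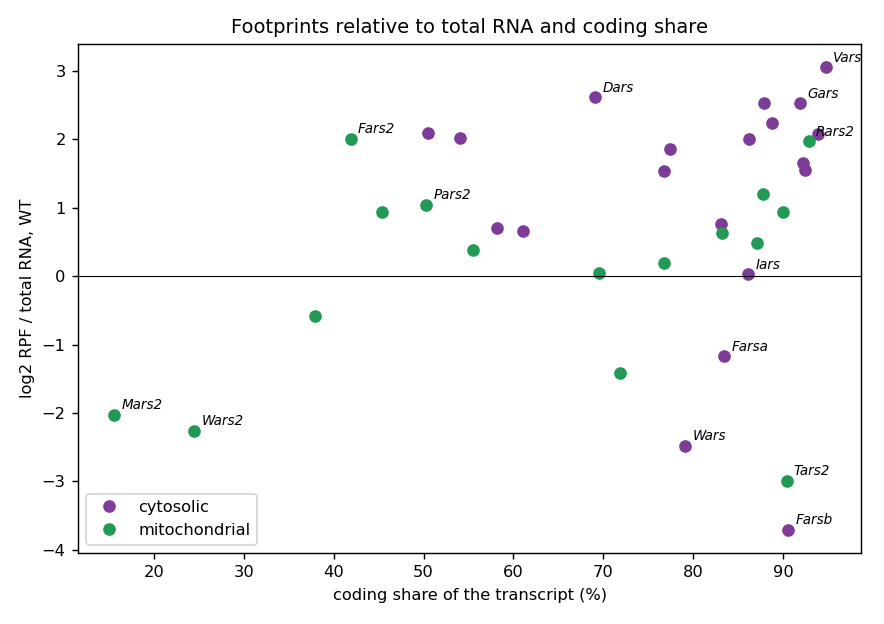
Log2 of footprints relative to total RNA in WT (vertical axis) against the coding share of the transcript in percent (horizontal axis), 1 point for each of 36 members, coloured by class. Mars2 (15.6%) and Wars2 (24.5%) have low coding shares, while Farsb (90.6%) and Tars2 (90.4%) lie low at high coding shares.

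The bases around the annotated start codon are printed for the members with the highest and lowest footprints relative to RNA, since a purine 3 bases before ATG and a G right after it are the known features of a strong initiation site. Capitals mark the base at -3, the start codon and the base that follows, read from the GENCODE transcript with the longest coding sequence.
Vars: tgcacaGccATGT
Dars: agtgtcCtgATGC
Gars: ggcgtgCtcATGC
Wars: tcctagAagATGG
Tars2: tgagacAgcATGG
Farsb: cgactcGccATGC
A purine stood at -3 in 15 of 20 cytosolic members (75%), in 14 of the 16 mitochondrial members with a long enough leader (87.5%) and in 86.1% of tested nuclear protein-coding genes. Both features were present in 55.0%, 43.8% and 45.5%. Among the 6 genes shown, Wars and Tars2 had both features and few footprints, and Dars and Gars had neither at the start read here and many footprints. Only the start of the longest coding sequence was read. Gars serves both compartments, and whether its footprints come from that start or from another was not tested.

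The genotype comparison asked whether the Rasgrp1 mutation changed synthetase mRNAs, footprints or the footprints per mRNA. No member was called in any of the 3 tests, under edgeR or under any alternative run, DESeq2 and limma-voom included. Over all genes edgeR called 4 of 17876 in total RNA (0.0224%, all lower in Anaef), 0 of 9710 in RPF (0%) and 0 of 19031 in the interaction of genotype and assay (0%), which tests the change of footprints relative to RNA. DESeq2 called 120 genes in total RNA, 180 in RPF and 5 in the interaction, and limma-voom 2, 0 and 0. At an unadjusted p under 0.05 in edgeR there were 1004, 1151 and 636 genes in these tests and 0, 2 and 1 members. The comparisons share libraries, so their values stand side by side and are not independent.

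In total RNA the median log2 change of Anaef against WT was 0.02 for the cytosolic and 0.05 for the mitochondrial class, with 0.01 over all genes. Without 1 library each these medians ran from -0.01 (without WT replicate 4) to 0.07 and from -0.05 (without Anaef replicate 7) to 0.09, so neither kept its sign. Vars had the smallest p among cytosolic members with lower values, with 25.5, 28.3, 26.4 and 25.6 CPM in WT and 18.5, 21.6, 24.3 and 16.5 in Anaef (log2 -0.39, SE 0.20, adjusted p = 0.897). Its groups did not overlap, and the share of all genes without overlap was not counted. Tars, with 24.4, 30.02, 20.5 and 31.6 CPM in WT and 43.97, 25.8, 28.3 and 39.2 in Anaef, had 0.36 (SE 0.24, adjusted p = 0.934), and its groups overlapped. Among mitochondrial members Wars2 had 0.91 (SE 0.46, adjusted p = 0.897), with Anaef replicate 5 at 47.8 CPM and the other Anaef libraries at 13.6 to 17.9, and 0.31 without that library. Fars2 had 1.45 (SE 0.92), with Anaef replicate 8 at 14.9 CPM and the other Anaef libraries at 2.74 to 3.41, and 0.49 without replicate 8. Lars2 (-0.68, SE 0.36) had the smallest p among mitochondrial members with lower values and did not pass (adjusted p = 0.904). Lars2, the leucyl enzyme, had 16.4, 14.7, 7.13 and 8.92 CPM in WT and 5.72, 5.30, 8.53 and 10.04 in Anaef total RNA. Its groups overlapped.

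In footprints the class medians were 0.08 (cytosolic) and -0.11 (mitochondrial), with 0.01 over all genes. Without 1 pool each they ran from -0.02 (without 4B) to 0.13 and from -0.21 (without 1B) to -0.04 (without 2B). Iars2 had the smallest p of the members, with 56.4 and 61.5 CPM in the WT pools and 38.9 and 35.9 in the Anaef pools, a log2 change of -0.64 (SE 0.16, adjusted p = 0.344). The 2 Anaef pools lay below both WT pools. Its mRNA was 43.2, 44.9, 42.7 and 53.2 CPM in WT and 54.8, 52.7, 40.6 and 69.97 in Anaef (log2 0.24), so that the interaction was -0.90 (SE 0.31, adjusted p = 1). The Anaef values of Iars2 were thus lower in footprints and not in RNA, without passing either test. Farsa had 7.99 and 8.11 CPM in the WT and 11.6 and 12.96 in the Anaef pools, a log2 change of 0.62 (SE 0.24, adjusted p = 0.402). Its groups did not overlap either, at 47 to 76 counts per pool. With 2 pools against 2, the order of the values alone often separates groups. The share of all genes whose pools separate was not counted. Gars passed neither test. Its pools had 135 and 141 CPM in WT and 107 and 112 in Anaef, with -0.32 in footprints (adjusted p = 0.427) and -0.47 in the interaction (adjusted p = 1). The remaining members with the smallest p in footprints were Lars (0.21), Iars (0.21) and Dars (-0.27), none with an adjusted p under 0.494.

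In the interaction the medians were 0.03 and -0.11, with 0.01 over all genes. Without 1 library each they ran from -0.08 (without 4B) to 0.09 and from -0.40 (without 1B) to 0.06 (without 2B). Vars had 0.49 (SE 0.25, adjusted p = 1), from 217 and 215 CPM in the WT and 219 and 246 in the Anaef pools over the RNA values above. Farsb had 0.55 (SE 0.41), Sars2 0.79 (SE 0.51) and Fars2 -2.01 (SE 1.44), all with an adjusted p of 1. The value of Fars2 was -1.03 without Anaef replicate 8. With 2 pools per genotype these intervals are wide, and a p over the threshold does not show that the genotypes are alike.

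**Figure D5:**
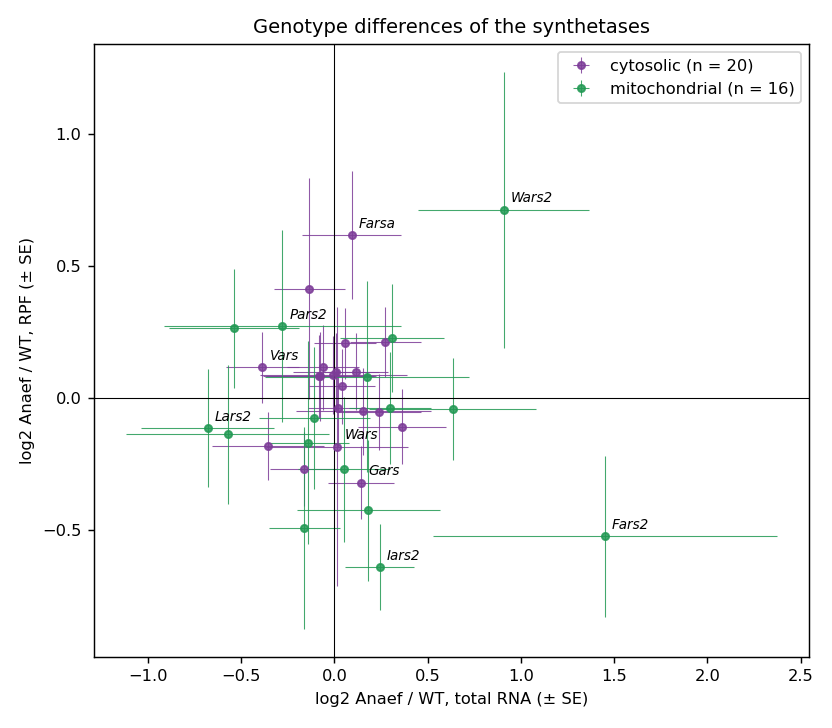
Log2 change of Anaef against WT in total RNA (horizontal axis, 4 against 4 libraries) and in footprints (vertical axis, 2 against 2 pools) for 36 members, with SE as bars, coloured by class. No member passed the adjusted threshold; Iars2 lies lowest in footprints at -0.64, and Fars2 farthest right at 1.45 with an SE of 0.92.

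Of 16 listed partners of tRNA charging, 5 were called higher and 4 lower in footprints relative to RNA in WT, and 4 higher and 5 lower in Anaef. Over nuclear protein-coding genes 26.5% were called higher and 39.3% lower in WT, and 21.6% and 36.2% in Anaef. The share of partners called higher was near that background and the share called lower was below it. The 3 scaffold genes of the multisynthetase complex were higher in both genotypes, as were 7 of its 8 synthetases. Aimp2 had a log2 difference of 2.21 (SE 0.28, adjusted p = 0.00024) in WT and 3.35 (SE 0.31, adjusted p = 4.53e-05) in Anaef, from 5.61, 6.44, 10.8 and 7.61 CPM in WT total RNA against 32.2 and 36.6 in the WT pools. Aimp1 had 1.66 and 1.38, and Eef1e1 1.53 and 1.69. Gcn1l1, whose product helps GCN2 sense uncharged tRNA, was higher in both (0.80 and 1.395). Eif2ak4 (GCN2) was higher in WT (log2 0.84, SE 0.33, adjusted p = 0.0472) and not called in Anaef (log2 0.87, SE 0.50, adjusted p = 0.152). Atf4 was lower in both, with 48.02, 50.5, 68.4 and 52.4 CPM in WT total RNA against 21.2 and 18.3 in the WT pools (log2 -1.45, SE 0.22, adjusted p = 0.000672 in WT and log2 -1.22, SE 0.41, adjusted p = 0.0278 in Anaef). Gatc, a subunit of the mitochondrial amidotransferase, had -2.82 and -3.47, Sepsecs, which makes selenocysteinyl-tRNA, had -2.71 and -3.14, and Mtfmt, the formyltransferase of mitochondrial initiator tRNA, had -1.09 and -1.59, all lower. Trnt1, which adds the CCA end of tRNAs, was lower in Anaef (-1.25) and not called in WT (-0.48).

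Between genotypes no partner was called. Aimp2 had the smallest p in total RNA, with 5.61, 6.44, 10.8 and 7.61 CPM in WT and 3.55, 3.28, 3.24 and 4.52 in Anaef (log2 -1.05, SE 0.32, adjusted p = 0.69). The 4 Anaef libraries lay below the 4 WT libraries, while the Anaef pools, at 42.4 and 32.3 CPM, overlapped the range of the WT pools. How many of all genes separate in total RNA was not counted. Its interaction was 1.17 (SE 0.42, adjusted p = 1). Eif2ak4 and Atf4 had log2 changes of -0.04 and 0.13 in total RNA. Rasgrp1 itself, whose mutation is a point change that a gene count does not show, had 0.21 in total RNA (adjusted p = 0.945). In footprints Rasgrp1 had 107 and 123 CPM in the WT and 87.9 and 73.1 in the Anaef pools. Its log2 change there was -0.50 (SE 0.16, adjusted p = 0.363), and its interaction was -0.72 (SE 0.27), neither called.

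The C/EBP-ATF response element, to which ATF4 is known to bind in genes of the amino acid response, was searched as TGATGNAAN on both strands of RefSeq promoter windows of GRCm38.p6, which run from 250 bases before to 50 bases after a transcript's start. The sites are shown because the cytosolic synthetases are known ATF4 targets. A window was matched for 13 cytosolic and 14 mitochondrial members. A match stood in 5 of the 13 (38.5%), Aars, Gars, Iars, Tars and Yars, and in 0 of the 14 (0%), against 4.496% of 27025 genes with a window. No window was matched for 7 cytosolic and 3 mitochondrial members, among them Vars and Wars. The matches of Gars, Iars, Tars and Yars are printed with 10 bases on either side, 5′ to 3′ along the gene, with the match in capitals; it reads on the opposite strand in all but Yars.
Gars, chr6:55037970-55037978, plus strand: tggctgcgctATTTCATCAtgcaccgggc
Iars, chr13:49682136-49682144, plus strand: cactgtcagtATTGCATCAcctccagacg
Tars, chr15:11399666-11399674, minus strand: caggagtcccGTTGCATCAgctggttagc
Yars, chr4:129189906-129189914, plus strand: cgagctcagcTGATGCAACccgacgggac
Counted from the transcript's start as base 1, the first printed base of the match was at -31 in Gars, -16 in Tars, 7 in Iars and 4 in Yars. A match is a description of the letters and not a bound site. The ATG inside the Yars match has the same bases around it as the annotated start codon of its longest coding sequence. That match, counted among the 5, thus spans the start of coding sequence. The 5 genes had log2 changes in Anaef total RNA from -0.06 to 0.36, none called. Of the 5, 4 (all but Iars) were called higher in footprints relative to RNA in both genotypes. This is the share of the whole cytosolic class, 16 of 20 in each genotype.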

How the data were processed

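The deposited table held raw counts per gene for total RNA and counts after masking for RPF, per the labels, with no normalization by the authors. Per the submitters' processing notes, TopHat 1.4.1 and the build GRCm38 were used; the counter with its annotation and strand setting, and the masked regions, are not given in the sources used. All 12 columns were matched to samples by name. Members were matched by symbol to GENCODE vM21 (GRCm38); lengths, start codons and 30-base words came from it, and promoter windows from RefSeq (GRCm38.p6).

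Genes were tested with edgeR 4.0.16 (R 4.3.3): filterByExpr, TMM scaling, quasi-likelihood F test, Benjamini-Hochberg adjustment at 0.05 over all genes. Total RNA was fitted on 8 libraries, RPF on 4, the interaction on 12, and RPF against total RNA on the 6 of each genotype. SEs were derived from F and the fold change. All 37 members passed the filter in every fit. CPM are on the scale of all 12 libraries, so their ratios differ slightly from fitted fold changes.

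Replicates were compared pairwise: chi-square per gene was at least 10.5, so no pair agreed within sampling noise. The scripts were tested on simulated data. Values in every library were given for members called and for up to 3 members per direction with the smallest p in a comparison; for levels, the 2 highest and 2 lowest of each class; partners by counts, by the smallest p and any called. Single values of 1 member and some promoter sequences are not reported here; both count in class totals and medians. The members and lists were chosen with earlier results of these data known. Alternatives were DESeq2 1.42.0, limma-voom (limma 3.58.1), RLE size factors, all genes with a count, only genes averaging 50 or more counts, nuclear protein-coding genes only, 1 fit of all 12 libraries, means in place of medians, omission of Gars and Kars, other lengths, and leaving out each library; length-scaled ratios and joint removal of WT replicate 3 and Anaef replicate 6 were chosen after seeing the data. Counting limits cover counting error only, because duplicate reads of 1 molecule are counted apart where no molecular identifier marks them.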

Additional observations from a re-analysis of the deposited data

Results flagged for a closer look

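In 10 of the 74 sets of 4 total RNA libraries tested (1 per member and genotype), 1 library lay apart from the other 3 by Dixon's criterion at 95%. Chance flags about 1 in 20 sets. In WT replicate 3 the values were 29.9 CPM for Gars, 49.0 for Mars, 75.2 for Sars and 30.1 for Vars2, each above the other WT libraries. In Anaef replicate 5 they were 53.9 CPM for Mars, 18.1 for Nars2 and 47.8 for Wars2, above the other Anaef libraries. Single cases were Iars in Anaef replicate 6 (146 CPM), Fars2 in Anaef replicate 8 (14.9 CPM) and Mars2 in WT replicate 4 (30.1 CPM, below the others at 39.8 to 41.6). WT replicate 3 had the fewest counts of the 8 total RNA libraries, 15326842, and Anaef replicate 5 the next fewest, 18580747.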

How the results depend on the processing

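No member was called between genotypes under any alternative run, including the removal of WT replicate 3 and Anaef replicate 6 together, chosen after seeing the data. For footprints against total RNA, members called higher in WT numbered 20, with 18 to 24 under the alternatives and 18 to 21 without 1 library each; members called lower numbered 6, with 6 to 7 and 5 to 8. In Anaef the counts were 17 higher (13 to 20, and 12 to 18) and 5 lower (3 under limma-voom up to 6, and 4 to 6).

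The cytosolic minus mitochondrial median log2 value was 1.27 in WT and 1.49 in Anaef. It was 1.07 and 1.26 with class means, 1.29 in Anaef under limma-voom, 0.91 and 0.66 per coding and exon kb, and 0.65 and 0.64 per longest transcript. Without 1 library each it was 1.22 to 1.46 in WT and 1.24 to 1.52 in Anaef. For the interaction it was 0.14, and -0.0216 to 0.405 without 1 library each. The ratio of class medians per exon kb in WT total RNA, 3.05, was 2.97 per coding kb and 3.29 per longest transcript. The cause of these shifts was not tested.

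Of 900 single-gene values, 34 lost their call and 0 reversed. The 900 include members named in the genotype comparisons, which had no call to lose. RLE size factors moved the all-gene median of Anaef footprints against RNA from -1.79 to -1.67, and DESeq2 and limma-voom that of the interaction from 0.01 to 0.32 and 0.36; calls of members are relative to such shifts. No paired analysis was possible because the groups share no replicate numbers. RPF depth limits Farsb, Wars, Tars2 and Wars2, which had 8 to 42 counts per pool.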

Other observations

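Genes for the same amino acid were set side by side after their values were seen. Of the 14 amino acids with 1 cytosolic and 1 mitochondrial gene of the same letter, the cytosolic gene had the higher footprint value relative to RNA for 11 in WT and 13 in Anaef, with median differences of 1.31 and 0.96 on the log2 scale. The exceptions in WT were isoleucine, tryptophan and tyrosine, and in Anaef tryptophan. The isoleucine pair is uncertain because Iars shares coding words with Gm4849. Tryptophan was the amino acid whose genes were low in both compartments without regard to length, with -2.48 for Wars and -2.26 for Wars2 in WT. Scaled per exon kb in WT, they stood at percentiles 18.5 and 32.4 of nuclear protein-coding genes. The widest gap in WT was that of threonine, 5.00 between Tars and Tars2, which was 4.87 in Anaef. The widest in Anaef was that of valine, 5.07 between Vars and Vars2, which was 4.47 in WT.

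The 2 structural classes of catalytic domain showed no wide gap within the cytosolic enzymes. In WT, 7 of the 9 class I enzymes (such as Vars and Lars) and 8 of the 10 class II enzymes (such as Dars and Kars) were called higher in footprints, with medians of 1.65 and 2.01. In Anaef the counts were 7 of 9 and 8 of 10, with medians of 1.74 and 1.77. The median of Anaef against WT in total RNA was 0.01 for class I and 0.03 for class II. No test of the classes was made.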
